A study of Mus musculus with 2 samples.

Results

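The genes described here are the heat shock and chaperone genes of the mouse, chosen by symbol. They comprise the HSP70 and HSP110, HSP90, small heat shock protein, mitochondrial chaperonin, CCT chaperonin, DNAJA, DNAJB and DNAJC families and the heat shock factors, and 86 of the 21938 protein-coding genes of the annotation matched. Their promoters were examined by DNase-seq, in which DNase I cuts DNA that nucleosomes do not cover and the cuts are located by sequencing. The tissue was frontal cortex from 25-day-old females of B6CASTF1/J, a hybrid between C57BL/6J and CAST/EiJ, which is a strain bred from wild mice. Both libraries belong to 1 group, with no treatment, heat shock or other condition to compare, so no test between conditions could be made. By the labels, the 2 libraries are different biological replicates, each with its own biosample, yet 1 donor is named for both, so the spread between them need not be a spread between animals. The maternal and paternal alleles were not separated in the deposited peak lists. The classes used below, such as inducible and constitutive, are lists set by hand with earlier results of these data known.

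Chaperones bind unfolded or partly folded proteins. HSP70 proteins do so in cycles of ATP hydrolysis that J-domain proteins (the DNAJ families) start and nucleotide exchange factors such as the HSP110 proteins end, HSP90 completes the folding of client kinases and receptors, and the CCT ring folds actin and tubulin. In the heat shock response, heat shock factor 1 trimerises and binds heat shock elements, inverted repeats of the unit GAA, in front of inducible chaperone genes. A separate response to unfolded protein in the endoplasmic reticulum (ER) acts through ATF6 and XBP1 on the ER chaperone genes, whose promoters carry ER stress elements. Neurons are long-lived cells with high protein turnover at synapses, and are known for a high threshold for induction of the cytosolic heat shock response.

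For each gene and library, the promoter value is the authors' read-depth normalized signal of the strongest peak that overlaps the 1 kb on either side of any annotated transcription start site (TSS) of the gene. The scale of this signal is not stated, so that values can be set beside each other but carry no absolute unit. The longer of the 2 deposited peak lists of each library was used, with 85603 peaks in replicate 1 and 87847 peaks in replicate 2. In libraries from whole tissue, fewer cells with an open site and a site less open in each cell cannot be told apart. As a check of the tissue, both libraries had a promoter peak at 6 of 6 pan-neuronal markers and at 5 of 5 excitatory neuron markers, and also at 5 of 6 inhibitory neuron, 3 of 6 astrocyte, 3 of 7 oligodendrocyte, 1 of 6 microglial and 1 of 5 endothelial markers. Of the markers of tissues other than brain, 3 of 6 for striated muscle and 1 of 6 for germ cells had one. Of all protein-coding genes, 61.5% had one in both libraries.

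Open promoters were the rule among the chaperone genes. A promoter peak was present in both libraries at 74 of 86 chaperone genes (86.0%), against 61.5% of all protein-coding genes. Another 3 had a peak in replicate 1 only and 9 in neither library. In the shorter peak list, 70 of the 86 chaperone genes had one in both libraries, against 55.6% of all genes, and Dnajb14, Dnajb2, Dnajc22 and Hspb3 dropped out. The median promoter value of the 74 chaperone genes was 3.55, against 2.34 for all genes open at the promoter in both. It was 3.21 in replicate 1 and 4.12 in replicate 2, against 2.24 and 2.40 for all genes in those libraries. Of the 74 genes, 53 lay above the median of all genes, where 50% of all genes lie, and 16 lay above the 90th percentile, where 10% lie. The 5' ends of chaperone genes are rich in CpG, with a median of 64.5 CpG in the 1 kb around the 5' end for the 86 genes, against 41 for all protein-coding genes. Among genes open in both libraries the medians were 68.5 CpG for chaperone genes and 60 for all genes. The part of CpG content in the difference in values was not tested.

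**Figure D1:**
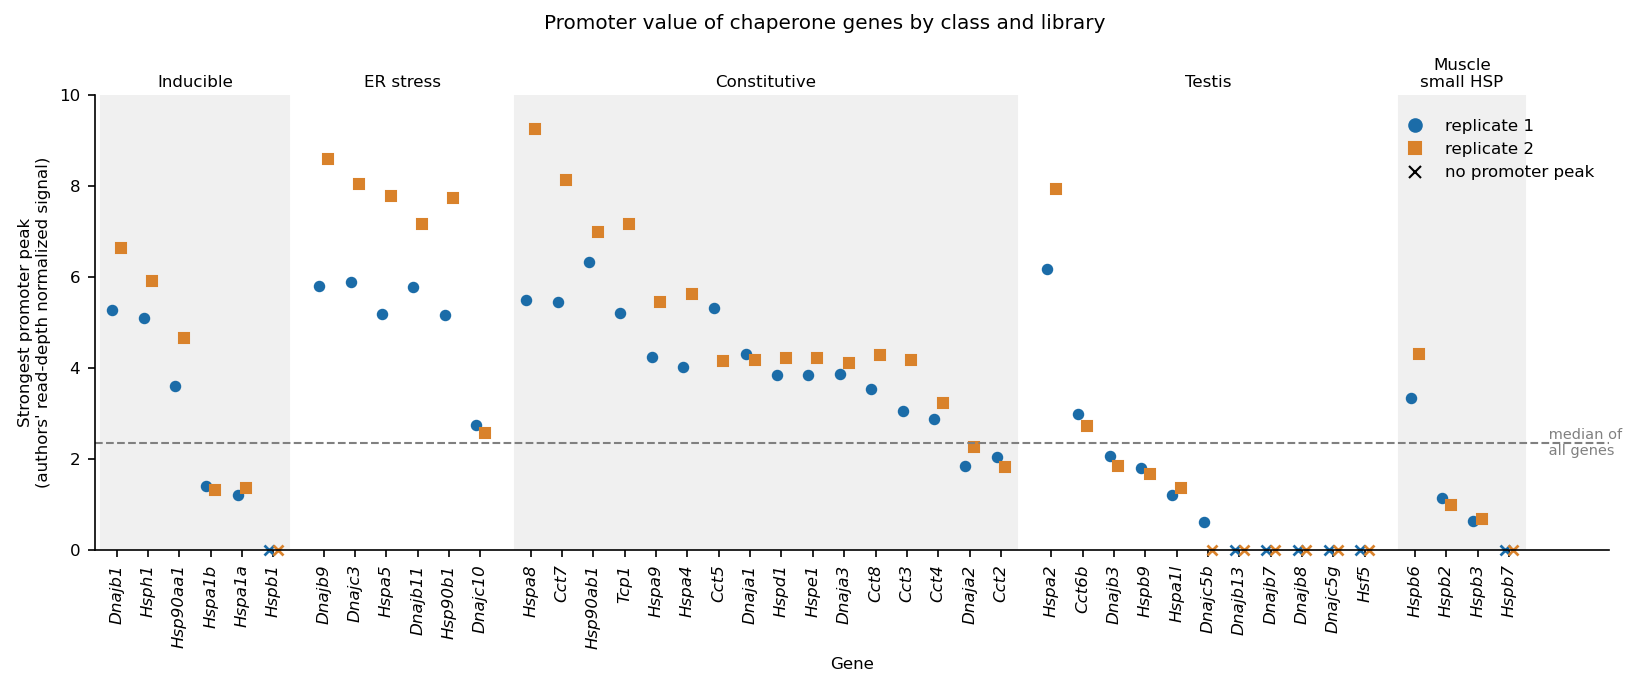
Promoter value of the chaperone genes of 5 classes, by gene and library. The y axis is the authors' read-depth normalized signal of the strongest promoter peak, circles are replicate 1, squares are replicate 2 and crosses at 0 stand for no promoter peak. The dashed line is the median of all protein-coding genes that are open in both, 2.34. The ER stress genes lie above it in both libraries, whereas Hspa1a and Hspa1b lie below it and Hspb1 has no peak.

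Among the stress-inducible genes of the cytosol, the promoters fell into an open and a weak set. Dnajb1, the J-domain partner of inducible HSP70, had promoter values of 5.28 and 6.63 in replicates 1 and 2. Hsph1, which encodes the HSP110 exchange factor HSP105, had 5.10 and 5.90. Hsp90aa1, the inducible HSP90, had 3.59 and 4.66. These 3 genes were above the median of all genes in both libraries. Hspa1a and Hspa1b, the neighbouring genes of the major inducible HSP70 on chromosome 17, had weaker promoters. Hspa1a had values of 1.20 and 1.35, and Hspa1b had 1.39 and 1.32. Their means were 1.28 ± 0.106 for Hspa1a and 1.35 ± 0.0502 for Hspa1b (SD, n = 2). These means stood at percentiles of 24.9 and 27.0 among all genes open in both libraries. Hspb1, the small heat shock protein HSP25 of the mouse, had no promoter peak in either library, although its 5' end holds 64 CpG in 1 kb. Its nearest peaks were 9847 bp away in replicate 1 and 10479 bp away in replicate 2.

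The weak values of Hspa1a and Hspa1b need their sequence beside them. The replicate 1 peak of Hspa1b was 99.3% identical over all of its 280 bp to the Hspa1a locus, and that of Hspa1a was 97.6% identical over 379 of its 460 bp to the Hspa1b locus. Hspa1l shares the peak of Hspa1a and so the same copy. None of the other chaperone genes had a promoter peak with a copy of at least 95% identity over at least 50% of the peak. How reads that fit both loci were handled is not given in the sources used here, so their part in these 2 values was not tested. Hsp90aa1 depends on which of its TSS is read. Its strongest peak in replicate 1 was centred 6267 bp from the annotated 5' end, at an internal TSS, and with the 5' end alone its mean value was 1.63.

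The ER chaperones had the highest median of the 6 classes. All 6 genes were open in both libraries, against 61.5% of all genes. Their median value was 6.47, against 4.12 for the inducible and 4.13 for the constitutive genes. The inducible median is the value of Hsp90aa1 at its internal TSS, and with the 5' end alone as TSS it was 1.63. Hspa5, which encodes the ER HSP70 BiP, had values of 5.17 and 7.78. Hsp90b1, the ER HSP90 GRP94, had 5.15 and 7.73. The ER J-domain proteins Dnajb9, Dnajb11 and Dnajc3 (the eIF2-alpha kinase inhibitor P58IPK) had 5.80 and 8.59, 5.77 and 7.17, and 5.88 and 8.05. In both libraries the peak of Dnajb11 was centred nearer to a TSS of Tbccd1, and that of Hsp90b1 nearer to a TSS of Ttc41, than to their own. All 5 exceeded the 90th percentile of all genes by their mean. Dnajc10, an ER disulfide reductase with a J domain, was the lowest of the class, with 2.75 and 2.58. Each of the 5 strong ER genes was higher in replicate 2. Their values ran from 5.15 to 5.88 in replicate 1 and from 7.17 to 8.59 in replicate 2.

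Of the 16 constitutive genes, 16 had a promoter peak in both, against 61.5% of all genes. Hspa8, the constitutive cytosolic HSP70 of most cells, had the highest mean of all the chaperone genes, 7.37 ± 2.67 (SD, n = 2), and also the widest spread, with 5.48 in replicate 1 and 9.26 in replicate 2. Hsp90ab1, the constitutive HSP90, had 6.32 and 6.98. Hspa4, a constitutive HSP110, had 4.02 and 5.61, and Hspa9, the mitochondrial HSP70 mortalin, had 4.24 and 5.44. Among the cytosolic forms, inducible Hspa1a and Hspa1b were below constitutive Hspa8, and Hsp90aa1 was below Hsp90ab1, in both libraries. Other pairs ran the opposite way in both libraries: inducible Hsph1 was above the constitutive HSP110 Hspa4, and inducible Dnajb1 was above Dnaja1. Hspd1 and Hspe1, which encode the mitochondrial chaperonin HSP60 and its lid HSP10, are divergent genes that share 1 peak, with values of 3.83 and 4.20. Among the CCT subunits, Cct7 had 5.45 and 8.12, Tcp1 had 5.19 and 7.17, Cct5 had 5.31 and 4.14, and Cct8 had 3.54 and 4.28. Cct2 was the lowest of the constitutive genes, with 2.04 and 1.82. Subunit Cct6a is annotated as a processed transcript and so is not among the 86 genes, but its promoter values were 4.22 and 5.70. Dnaja1, Dnaja3 and Dnaja2, J-domain partners of HSP70 in the cytosol and, for Dnaja3, in mitochondria, had values of 4.31 and 4.18, 3.86 and 4.10, and 1.85 and 2.25. The Dnaja3 peak of replicate 1 was centred 44082 bp from the annotated 5' end, and with the 5' end alone the mean of Dnaja3 was 1.38, against 3.98 with any TSS.

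The forms known from testis ranged from closed to among the most open. A promoter peak in both libraries was present at 5 of the 11 genes, against 61.5% of all genes, and their median value was 1.95. The count was 4 where the gene's own TSS had to be the nearest to the peak, a setting added after seeing the data. Hspa2, an HSP70 needed for meiosis in male germ cells and also found in brain, had 6.18 and 7.94, the third highest mean of all the chaperone genes after Hspa8 and Dnajb9. Cct6b, the testis form of a CCT subunit, had 2.98 and 2.71, but its peak also lay within 1 kb of a TSS of Zfp830 in both libraries. The J-domain gene Dnajb3 had 2.07 and 1.83, and the small heat shock protein gene Hspb9 had 1.79 and 1.67. The Hspb9 peak lay beyond the 3' end of the gene in both libraries, centred 819 bp downstream of its nearest TSS in replicate 1. With a window of 0.5 kb Hspb9 no longer counted as open. At Hspa1l the strongest peak was that of Hspa1a, which lies within 1 kb of its TSS. Dnajb13, Dnajb7, Dnajb8, Dnajc5g and Hsf5 had no promoter peak in either library. Dnajc5b had a peak of 0.599 in replicate 1 only.

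Among the small heat shock proteins of muscle, Hspb6 (HSP20) stood above the rest, with 3.35 and 4.31, from a peak within 1 kb of a TSS of Proser3. Hspb2 had 1.13 and 0.976, from a peak that is also that of the alpha-B-crystallin gene Cryab and lies nearer to Cryab. Hspb3 had 0.639 and 0.674, and Hspb7 had no promoter peak in either library. Outside this class, Hspb11, also known as an intraflagellar transport component, had 2.62 and 2.88, and Hspb8, the partner of BAG3 in selective autophagy, had a peak of 0.593 in replicate 1 only. As a family, the small heat shock proteins had a peak in both libraries at 5 of 8 genes, against 61.5% of all genes, with a median value of 1.73, the lowest of the families. That median is the value of Hspb9, from the peak beyond the 3' end of the gene.

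**Figure D2:**
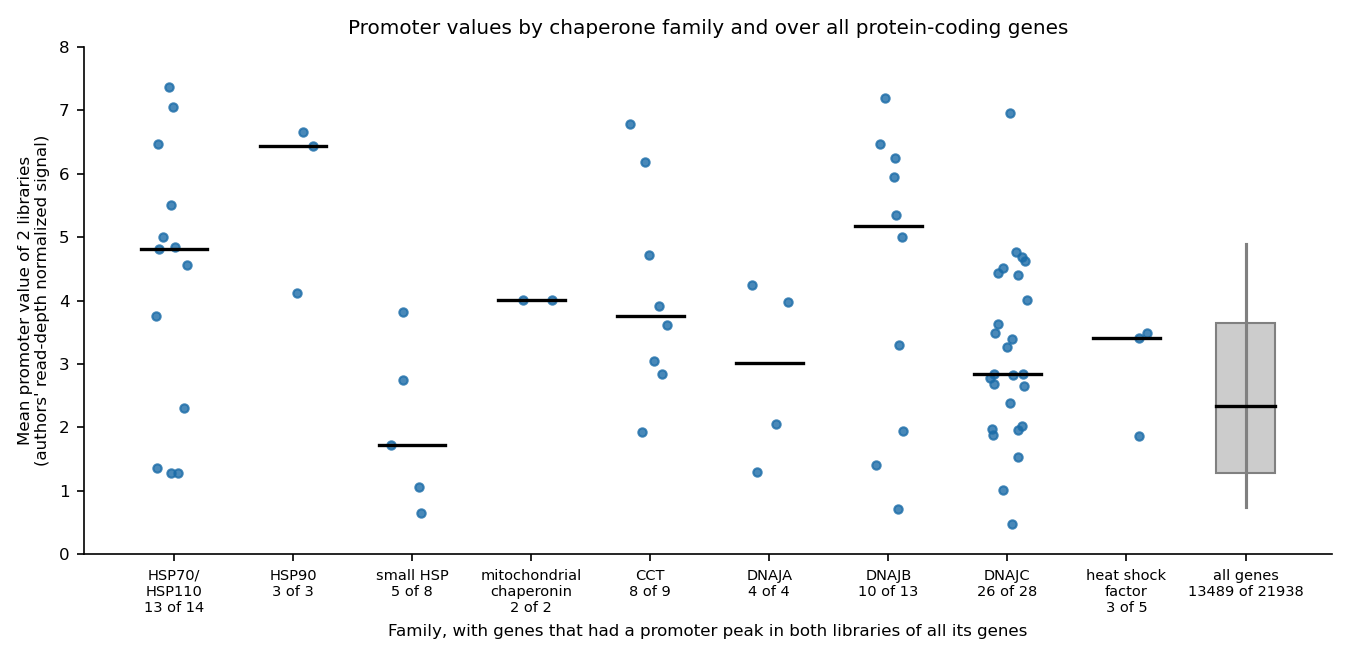
Mean promoter value over the 2 libraries for each gene open in both, by chaperone family, with the family median as a black bar. The box at the right gives the quartiles of all protein-coding genes and its line the 10th to 90th percentiles, and the numbers under the names give the genes shown of all the genes of the family. Medians run from 1.73 in the small heat shock proteins to 6.44 in the HSP90 family, against 2.34 for all genes.

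J-domain proteins form the largest group. The DNAJC family had a peak in both libraries at 26 of 28 genes, against 61.5% of all genes, with a median value of 2.84. After Dnajc3, its highest were Dnajc16 with 4.44 and 5.10, Dnajc5, the synaptic vesicle protein CSP-alpha, with 4.27 and 5.10, and Dnajc30 with 3.95 and 5.30. Dnajc6, the brain-enriched auxilin that uncoats clathrin vesicles, had 1.69 and 2.08, from a peak at an internal TSS, centred 11303 bp from the annotated 5' end in replicate 1, and with the 5' end alone its mean was 0.526. Dnajc22 had the lowest mean of all the chaperone genes, with 0.542 and 0.417. These values came from different peaks, centred 6072 bp from the annotated 5' end in replicate 1 and 326 bp from it in replicate 2. The DNAJB family had a peak in both libraries at 10 of 13 genes, against that same 61.5%, with a median value of 5.18. Dnajb4 had 6.0 and 6.52, from a peak shared with the divergent gene Fubp1. Its means ran from 7.19 at Dnajb9 to 0.721 at Dnajb14, and with a window of 2.5 kb that of Dnajb14 was 2.02. In the DNAJA family, 4 of 4 genes had a peak in both libraries, against that same 61.5%, and Dnaja4 was the lowest with 1.38 and 1.21.

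The heat shock factors, which encode the regulators themselves, had moderate promoters. Hsf1, the master regulator of the heat shock response, had 2.77 and 4.22, from a peak shared with the divergent gene Bop1. Hsf2 had 2.92 and 3.91. Hsf4, known for its role in the lens, had 1.6 and 2.11, and with a window of 0.5 kb its mean was 0.605. Hsf3 had a peak of 0.147 in replicate 1 only, within 1 kb of a TSS of Heph, and Hsf5 had none in either library despite 94 CpG in 1 kb.

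The 9 genes with no promoter peak in either library were Cct8l1, Dnajb13, Dnajb7, Dnajb8, Dnajc5g, Hsf5, Hspa12b, Hspb1 and Hspb7. The authors' table of false discovery rates of the cut rate, which lists positions of at most 0.05, held no position within 1 kb of a TSS of any of them in either library. Among the chaperone genes, each library listed such positions at every gene with a promoter peak and at no gene without one. The absence is therefore not separate from the peak calls. The nearest peak to a TSS of these 9 genes ranged from 3162 bp away, at Hspb7 in replicate 1, to 32288 bp away, at Dnajb8 in replicate 2. Outside Hspb1 and Hsf5 their 5' ends held 12 to 36 CpG in 1 kb. At the 3 genes with a peak in replicate 1 only, the lowest false discovery rate in that library was 0.00136 at Dnajc5b, 0.0193 at Hsf3 and 0.0466 at Hspb8, and replicate 2 listed no position there.

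**Figure D3:**
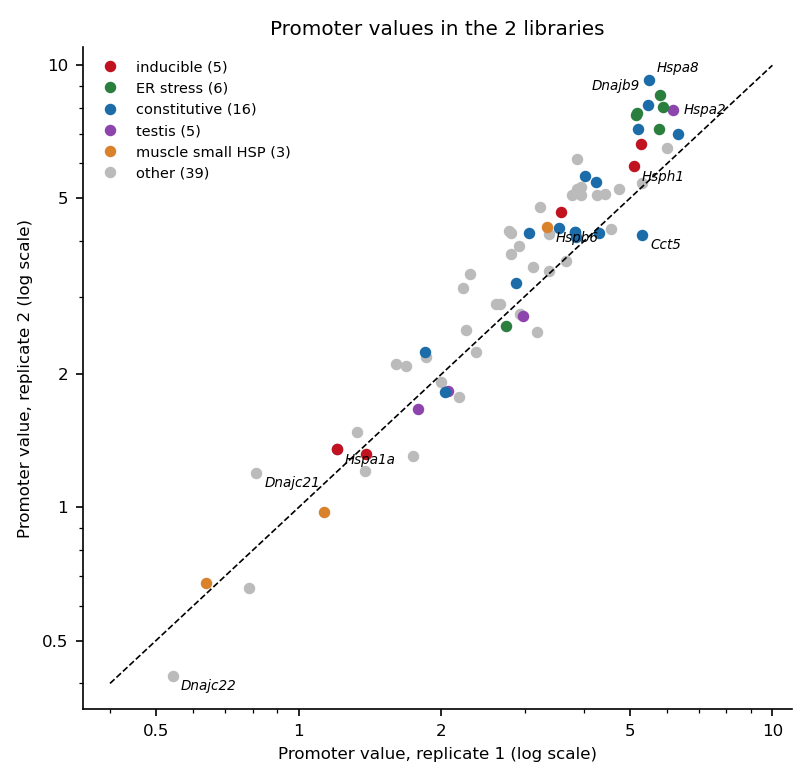
Promoter value in replicate 2 against replicate 1 for the 74 chaperone genes open in both, on log axes. Colours give the class with its number of genes, and the dashed line marks equal values. Most genes (54 of 74) lie above the line, and Cct5 lies below it.

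Values were higher in replicate 2 at 54 of the 74 chaperone genes, where 68.8% of all genes were higher. The median log2 ratio of replicate 2 to replicate 1 was 0.19 for the chaperone genes, with an SD of 0.29, and 0.15 for all genes, with an SD of 0.31. The ratio of replicate 2 to replicate 1 was highest at Hspa8 (1.69), Hspa13 (1.59), Hsf1 (1.52), Hspa5 (1.51) and Hsp90b1 (1.5). It was lowest at Dnajc28 (0.749), Dnajc22 (0.768), Cct5 (0.779), Dnajc24 (0.780) and Dnajc15 (0.816). At Dnajc22 the ratio sets different peaks beside each other. Hspa13, an HSP70-like protein of microsomes, had 3.87 in replicate 1 and 6.14 in replicate 2. Among genes with means close together, the order therefore rests on the library. Dnajb9 and Hspa2, for example, changed places between the libraries, with Hspa2 higher in replicate 1 and Dnajb9 higher in replicate 2.

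Many chaperone genes start beside another gene. At 27 of the 74 genes another protein-coding gene also had a TSS within 1 kb of the strongest peak, in both libraries, against 19.7% of all genes, so the value cannot be given to 1 gene alone. The 74 genes have 72 distinct peaks in replicate 1. At 63 of the 74 the gene's own TSS was the nearest in both libraries, against 88.4% of all genes. The strongest peak was centred over 1 kb from the annotated 5' end in both libraries at 8 of the 74 genes, against 12.4% of all genes. Footprints, short stretches within a peak where fewer cuts than expected from the surroundings mark a protected site, were called in the strongest peak in both libraries at 74 of 74 chaperone genes, against 96.7% of all genes. The median number was 6 in replicate 1 and 5 in replicate 2, against 4 in both for all genes. By class it ran from 2 in both for the muscle small heat shock proteins, with a median value of 1.05. The top was 8 and 6 for the ER stress class, with a median value of 6.47. The part of the promoter values in these numbers was not tested. Peak widths had the same medians as those of all genes, 260 bp in replicate 1 and 240 bp in replicate 2. The most footprints were at Hspa2 in replicate 1, with 12, and at Hsp90b1 in replicate 2, with 11.

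Peaks within gene bodies and outside promoter windows, called in both libraries, were found at 18 of the 86 chaperone genes (20.9%), against 32.4% of all genes. The median gene length was 17.6 kb for the chaperone genes and 17.4 kb for all genes. Hspa12a, a brain-enriched and divergent HSP70, had the most, with 7 such peaks over 148 kb, and Dnaja3, Dnajc1 and Dnajc5b had 4 each.

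The heat shock element was searched as 3 exact units GAA and TTC in alternating orientation with 2 bases between units, on both strands, in the strongest promoter peak of replicate 1. It was found at 8 of the 74 chaperone genes (10.8%), against 0.311% of all genes. The holders were Hspa8, Hsph1, Hsp90aa1, Hspd1, Hspe1, Dnaja1, Dnajb6 and Cct4, and they have 7 peaks, because Hspd1 and Hspe1 share one. The same 8 genes held it in the peaks of replicate 2, and in windows of equal size, the 300 bp around the peak centre, the count was again 8 against 0.311%. Over all genes 42 held the element, and 34 of these were not chaperone genes by the rule used here, among them Stip1, which encodes the HSP70 and HSP90 adaptor HOP. Of the 8 holders, Hsph1 and Hsp90aa1 are of the inducible class, Dnajb6 is in none of the named classes, and the others are of the constitutive class. The classes were set by hand, so a place in the constitutive class does not say that heat fails to induce the gene. The element occurs in sequence of the peak, and a match says neither that a factor was bound nor that the gene responds. All motifs were searched in the GRCm38 reference sequence alone, and not in the separate alleles of the hybrid.

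Sequences of 3 of these promoters are shown because they hold the element within an open peak, at genes of different families. They come from the RefSeq promoter table of GRCm38.p6, limited to the part inside the replicate 1 peak, and read in the direction of the gene. Capitals mark the element, and where 2 elements overlap the capitals cover both.
Hsph1, chr5:149636266-149636540, minus strand: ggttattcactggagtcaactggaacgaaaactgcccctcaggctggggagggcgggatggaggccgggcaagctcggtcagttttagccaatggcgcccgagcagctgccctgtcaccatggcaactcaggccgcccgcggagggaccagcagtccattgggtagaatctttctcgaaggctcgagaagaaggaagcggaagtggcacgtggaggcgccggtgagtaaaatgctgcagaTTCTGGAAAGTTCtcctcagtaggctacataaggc
Hspd1, chr1:55087961-55088182, minus strand: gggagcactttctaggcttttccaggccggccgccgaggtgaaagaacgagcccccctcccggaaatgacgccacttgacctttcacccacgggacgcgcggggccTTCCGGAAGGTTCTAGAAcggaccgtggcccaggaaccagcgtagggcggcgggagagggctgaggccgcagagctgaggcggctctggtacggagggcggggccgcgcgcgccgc
Dnajb6, chr5:29735801-29736028, plus strand: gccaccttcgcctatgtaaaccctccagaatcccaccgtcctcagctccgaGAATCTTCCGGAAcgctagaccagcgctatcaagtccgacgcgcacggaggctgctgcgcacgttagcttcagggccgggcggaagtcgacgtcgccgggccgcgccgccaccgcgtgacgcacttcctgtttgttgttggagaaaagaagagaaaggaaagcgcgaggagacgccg
Many of these genes have several annotated TSS, and the place of an element depends on which is read. At Hsph1 the element was centred 4 bp upstream of the TSS nearest to it, and it lay 76 to 88 bp downstream of the annotated 5' end. The peak shared by Hspd1 and Hspe1 holds 2 overlapping elements, 4 units in a row, centred 67 and 62 bp upstream of the nearest TSS of Hspe1. For Hspd1 they were centred 41 and 46 bp upstream of an internal TSS, the nearest to them, and lay 167 to 184 bp downstream of the annotated 5' end, inside the gene. At Dnajb6 it was centred 82 bp upstream of the nearest TSS, in a peak that also counts for Gm5129.

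Shorter and looser forms were also counted. The pair of units GAANNTTC was in the peaks of 15 of the 74 chaperone genes (20.3%), against 4.44% of all genes, and the pair TTCNNGAA in those of 9 (12.2%), against 5.37%. Every 3-unit element holds both pairs, so the 8 genes with an exact element are among the 15 and make up most of the 9. Over all genes, the 42 with an exact element are likewise among those with each pair. With at most 1 mismatch in the 3-unit element, 15 of the 74 genes (20.3%) held it, against 3.74% of all genes. In replicate 2 peaks 12 of the 74 (16.2%) did, against 3.21%. The 15 genes are not separate peaks, because Hspa1l counts through the peak of Hspa1a, and Hspd1 and Hspe1 share one. The genes added were Cct3, Cct5, Dnaja4, Dnajb1, Hspa1a, Hspa1b and Hspa1l, so that Dnajb1 and the inducible HSP70 genes join the list only with a mismatch. At Hspa1b the 2 overlapping sites were centred 103 and 108 bp upstream of the nearest TSS, and at Hspa1a at the same distances. Neither site lay wholly in the narrower peak of replicate 2, which was 200 bp at both genes, against 280 bp at Hspa1b and 460 bp at Hspa1a in replicate 1. The Hspa1b promoter is shown for these sites, with both in capitals, from the same table and limited to the replicate 1 peak.
Hspa1b, chr17:34959189-34959400, minus strand: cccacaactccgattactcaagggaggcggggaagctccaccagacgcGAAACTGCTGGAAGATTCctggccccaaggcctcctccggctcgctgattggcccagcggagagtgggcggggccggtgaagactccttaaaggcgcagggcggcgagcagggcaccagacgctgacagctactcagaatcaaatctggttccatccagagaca
In the 1 kb on either side of the annotated 5' end, whether open or not, 14 of the 86 chaperone genes (16.3%) held an exact element, against 3.47% of all protein-coding genes.

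**Figure D4:**
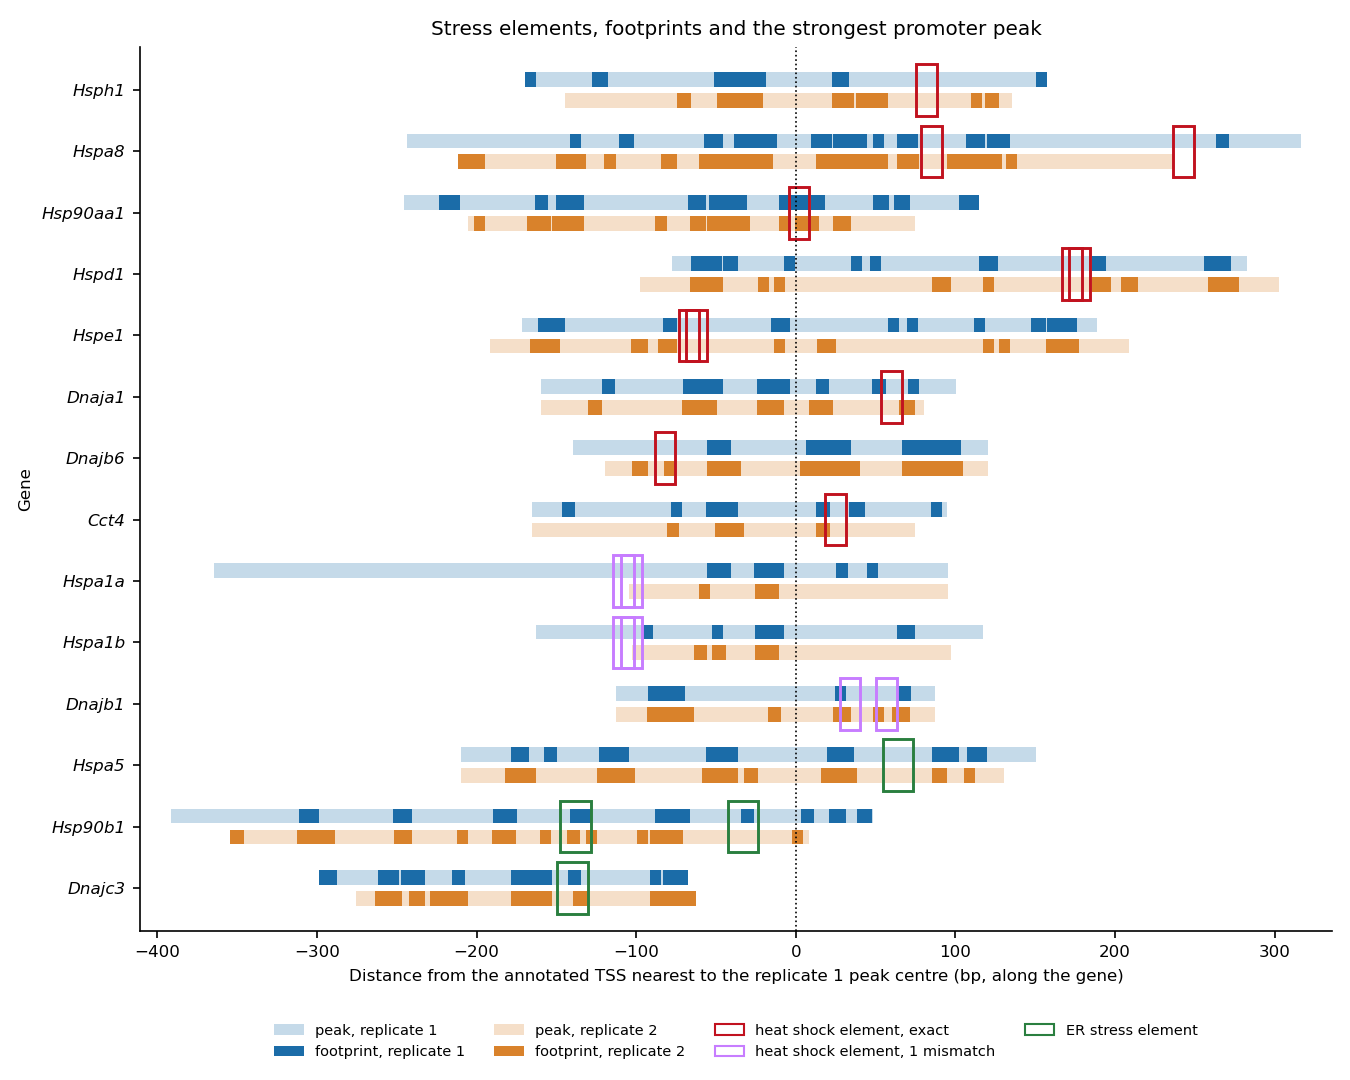
Strongest promoter peak of each library, footprints and stress elements at 14 chaperone genes, by distance in bp from the annotated TSS nearest to the centre of the replicate 1 peak, along the gene. Pale bars are peaks and dark bars footprints, with replicate 1 above replicate 2, and open boxes are elements found in the replicate 1 peak. Footprints reach the boxes of Hsp90aa1, Dnaja1, Cct4 and Dnajc3, the farther box of Hsp90b1 and the nearer box of Dnajb1 in both libraries, and none reaches those of Hsph1, Hspa8, Hspd1, Hspe1, Hspa1a, Hspa1b or Hspa5. At Dnaja1 and Cct4 they reach only an edge of the box.

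Footprints were called over a share of these elements close to that among all genes. In replicate 1 a footprint overlapped an exact heat shock element by at least 1 bp at Cct4, Dnaja1 and Hsp90aa1, 3 of the 8 holders, against 35.7% of all genes that hold one. In replicate 2 it did so at the same 3 genes and at Dnajb6, 4 of 8, against 48.5% of all genes that hold one there. At Cct4 and Dnaja1 the footprints met only an edge of the element, and at Dnaja1 opposite edges in replicates 1 and 2. None was called over the elements of Hspa8, Hsph1, Hspd1 and Hspe1 in either library. Over the 1-mismatch sites, footprints were called in both libraries at Dnaja4 and at 1 of the 2 sites of Dnajb1, and in neither library at Hspa1a and Hspa1b. The labels name no stress or treatment, and a footprint names no factor.

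The ER stress element, CCAAT and CCACG with 9 bases between them, was found at 3 of the 74 chaperone genes, Hspa5, Hsp90b1 and Dnajc3, against 0.119% of all genes. In the 300 bp around the peak centre it was also at 3, against 0.141% of all genes. All 3 are of the ER stress class. Of the 16 genes that held it, 4 others belong to the ER folding list, Calr, Canx, Pdia6 and Xbp1, and Ttc41 holds it through the peak it shares with Hsp90b1. The promoters of the 3 chaperone genes are shown, from the RefSeq promoter table of GRCm38.p6 within the replicate 1 peak, with the element in capitals in either orientation.
Hspa5, chr2:34771840-34772120, plus strand: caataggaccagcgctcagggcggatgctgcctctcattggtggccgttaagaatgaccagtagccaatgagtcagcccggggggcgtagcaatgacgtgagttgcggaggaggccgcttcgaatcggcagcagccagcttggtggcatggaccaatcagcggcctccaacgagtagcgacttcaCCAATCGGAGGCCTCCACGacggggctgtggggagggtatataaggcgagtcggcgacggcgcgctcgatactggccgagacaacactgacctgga
Hsp90b1, chr10:86705461-86705694, minus strand: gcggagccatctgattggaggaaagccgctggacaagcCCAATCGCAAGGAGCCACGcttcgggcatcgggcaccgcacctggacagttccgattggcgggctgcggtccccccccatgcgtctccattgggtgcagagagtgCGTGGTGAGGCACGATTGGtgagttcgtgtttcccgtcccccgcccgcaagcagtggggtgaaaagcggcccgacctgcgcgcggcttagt
Dnajc3, chr14:118937682-118937900, plus strand: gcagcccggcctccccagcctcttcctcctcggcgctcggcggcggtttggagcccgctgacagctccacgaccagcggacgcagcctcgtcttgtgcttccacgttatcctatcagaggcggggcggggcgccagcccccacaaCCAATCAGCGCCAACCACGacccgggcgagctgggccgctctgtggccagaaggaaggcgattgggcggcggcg
Centres lay 61 bp upstream of the nearest TSS at Hspa5, where the element is 55 to 73 bp downstream of the annotated 5' end, 33 and 138 bp upstream at Hsp90b1, and 140 bp upstream at Dnajc3. A footprint overlapped the element in both libraries at Dnajc3 and at the farther site of Hsp90b1, whose nearer site had one in replicate 1 only. At Hspa5 none did in either library. Among all genes that hold an element, 68.8% had a footprint over it in replicate 1.

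**Figure D5:**
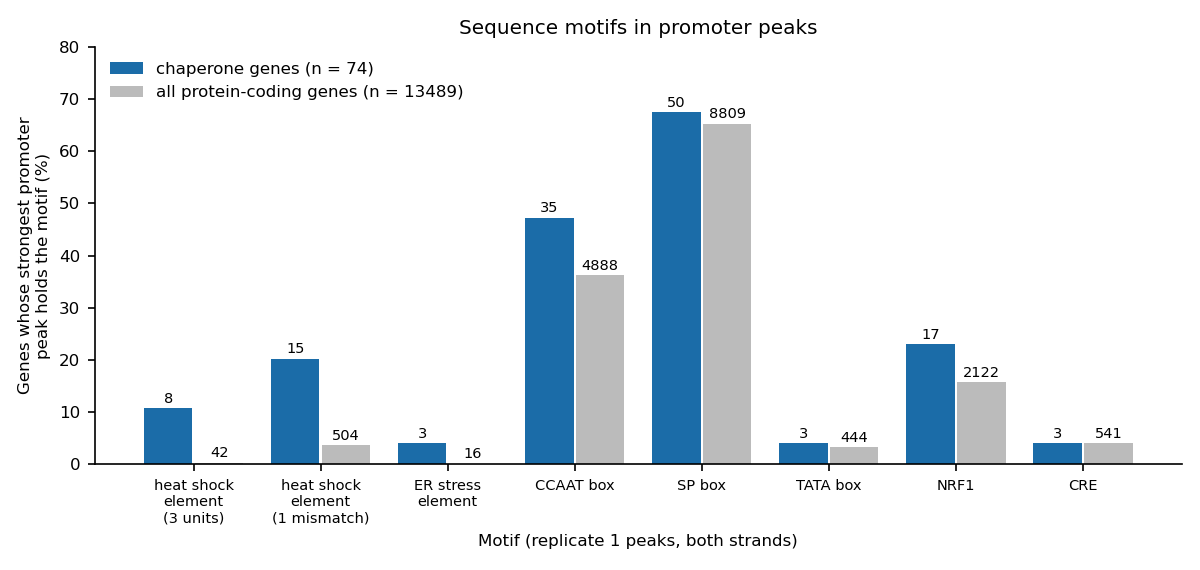
Share of genes whose strongest replicate 1 promoter peak holds each motif, in percent, for the 74 chaperone genes and for all 13489 protein-coding genes open in both libraries. Numbers above the bars count the genes. The heat shock and ER stress elements stand at 10.8% and 4.05% of chaperone genes, against 0.311% and 0.119% of all genes, while the SP, TATA and CRE boxes lie close to the background.

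General promoter motifs differed from all genes by smaller ratios than the stress elements, but not always by fewer percentage points. The CCAAT box (CCAAT), the site of NF-Y, was in the peaks of 35 of the 74 chaperone genes (47.3%), against 36.2% of all genes. The SP box (GGGCGG) was in 50 of the 74 (67.6%), against 65.3%, and the NRF1 motif in 17 (23.0%), against 15.7%. The CRE (TGACGTCA) was in 3 (4.05%), against 4.01%, and the TATA box (TATAAA) also in 3, against 3.29%. All were searched on both strands. The CCAAT count includes the boxes that are part of the ER stress elements.

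The partners of these chaperones were read from lists of other genes. Of 47 cochaperone and folding genes, 45 were open in both libraries, against 61.5% of all genes, with a median value of 3.94, against 2.34 for all genes, and the exceptions were Unc45b, a myosin chaperone of muscle, and Cryaa, the lens alpha-A-crystallin. Among the HSP90 cochaperones, 10 of 11 had one, and Stip1 was the highest with 4.54 and 6.62. Among the HSP70 cochaperones all 10 had one, led by Hyou1, the HSP110 of the ER, with 5.26 and 6.05. Bag3, which is itself a target of heat shock factor 1, had 1.08 and 1.23, close to the values of Hspa1a and Hspa1b. All 6 prefoldin genes had one, led by Pfdn1 with 4.29 and 3.79, but their median value of 2.17 was below that of all genes, with 2 of 6 above it. Cryab had 1.13 and 0.976. The 11 genes of ER folding and the unfolded protein response had a median value of 4.73, and Calr, the ER lectin chaperone calreticulin, led them with 5.46 and 8.31. All 11 lay above the median of all genes, where 50% of genes lie. The 7 mitochondrial chaperones and proteases had a median value of 3.94 and were led by Hscb, a J-domain protein of iron-sulfur cluster assembly, with 4.81 and 5.4.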

How the data were processed

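DNase-seq was made from nuclei of frontal cortex, per the labels' protocols. The deposited text files of each library state mm10 and name that library's alignment as the parent of its peaks and footprints, so libraries were not pooled. Column 7 of each peak list holds the authors' read-depth normalized signal. The authors' footprint lists carry the constant 0.01, read here as a p-value threshold, and the deposited table of false discovery rates (q-values) lists positions of at most 0.05. For the aligner, callers and depth, the sources used here give nothing, so no counting interval can be given.

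Genes and TSS came from GENCODE release M21 on GRCm38.p6, the same build as mm10. Peaks needed at least 1 bp inside a window of 1 kb on each side of a TSS. CpG were counted over 1 kb around the 5' end. Near-identical copies were sought with BLAST 2.17.0 (E-value of at most 1e-10). Overlaps used bedtools 2.31.1 and Python 3.11.15 with numpy 2.4.6, and figures matplotlib 3.10.9. Overlap and motif scans were tested on simulated data. The RefSeq promoter table runs from 250 bases before to 50 after each gene's start and held 69 of the 86 genes by symbol. With 1 group of 2 libraries no test was made, and the shares of all genes called by the same rule are given beside the main counts.

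The genes and lists were chosen with earlier results of these data known. Genes named are all of the inducible, ER stress, testis and muscle classes and all heat shock factors, up to 4 with the highest mean and up to 4 with no peak per family, those with a peak in 1 library only, the 5 highest and 5 lowest ratios between libraries, and, per partner list, the highest and those with no peak. Other genes, such as Dnajc6, Dnajb14, Cct2, Hspa4, Hspa9 and Bag3, were picked after their values were seen. There were 26 pairs of a result with another setting, of which the closing section gives those that moved a value, and 1 more, the gene's own TSS nearest to the peak, was added after seeing the data.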

Additional observations from a re-analysis of the deposited data

How the results depend on the processing

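Depth is unknown, 2 libraries give a spread but no test, and the value scale is not stated. With values divided by the library's median peak value, which changes the scale of every gene, the medians were 5.41 for all chaperone genes, 6.29 for the inducible, 9.86 for the ER stress, 6.33 for the constitutive and 3.0 for the testis class, against 3.58 for all genes. With 1 TSS per gene the inducible median was 1.63, because Hsp90aa1 falls to that value, and with a window of 0.5 kb the testis median was 2.40, because Hspb9 loses its peak. The heat shock element was at 14 chaperone genes in the 1 kb on either side of the 5' end, against 3.47% of all protein-coding genes. With 1 mismatch it was at 15 in replicate 1 peaks, against 3.74%, and at 12 in replicate 2 peaks, against 3.21%. Leaving out replicate 1 or replicate 2 gave 74 to 77 chaperone genes with a promoter peak, against 62.9% to 64.1% of all genes. A footprint was in it at 74 to 75, and the share of all genes with one was taken only over both libraries, 96.7%. The median value was 3.12 to 4.12 for all chaperone genes, against 2.16 to 2.34 for all genes. Class medians were 3.59 to 4.66 for the inducible, 5.47 to 7.76 for the ER stress, 3.94 to 4.20 for the constitutive and 1.83 to 1.93 for the testis class. Counts of chaperone genes open in both libraries, over all and by class, stayed within 1.5 times the main count under all alternatives run. Among genes that kept a peak, the own value moved by more than 1 SD at 0 with the shorter list and 2 with the window of 0.5 kb. It did so at 2 with that of 2.5 kb, 6 with 1 TSS per gene and 1 with the peak centre in the window. Genes that lost their peak are not in these numbers. They were 4 with the shorter list, 1 with the window of 0.5 kb and 2 with 1 TSS per gene, Dnajc18 and Dnajc25. No paired analysis was possible because there is 1 group.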
